A study of Homo sapiens with 12 samples.

Results

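The annexins are a family of proteins that bind phospholipid membranes when calcium is present. The human genes measured here were ANXA1, ANXA2, ANXA3, ANXA4, ANXA5, ANXA6, ANXA7, ANXA9 and ANXA11, which are 9 of the 20042 named genes that had a spot measured on all 12 arrays. They were taken by gene symbol, and the set was chosen by the ANXA3 level of CNOT1 +Dox cells, which had been seen to be low, so the CNOT1 +Dox values are given as a description and were not tested. The table held 31 spots for these 9 genes. The table also held 5 other genes with an ANXA symbol, which were kept apart.

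Gene expression was measured on 1-colour Agilent arrays in HEK-293T cells, a human embryonic kidney line that expresses the SV40 large T antigen. The cells carried an integrated pINDUCER (pIND) plasmid, which transcribes a short hairpin RNA when doxycycline (Dox) is added, and all lines are stable cell clones, so a difference between lines cannot be told apart from a difference between clones. The groups were CNOT1, CNOT2 and CNOT3 knock-down lines with Dox (+Dox, 1 µg/ml for 4 days), the same lines without Dox (-Dox), and the luciferase (Luci) control line +Dox and -Dox. The CNOT1 and CNOT3 groups had 1 array each and the CNOT2 and Luci groups had 2, of which array 1 came from the first experiment and array 2 from the second. The title of the second Luci -Dox array states no Dox whereas another of its labels states Dox, and the title was followed. CNOT1, CNOT2 and CNOT3 are subunits of the CCR4-NOT complex, which shortens the poly(A) tail of mRNAs and also acts on transcription.

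The array values are log2 intensities, so a difference of 1 is a 2-fold difference, and levels are compared only between arrays for the same gene. The lower quartile, median and upper quartile were 2.54, 3.34 and 6.69 on every array, and the replicate arrays of a group correlated with r between 0.958 and 0.971. The knocked-down genes had lower levels with Dox: CNOT1 was 5.07 in CNOT1 +Dox cells and 7.23 in CNOT1 -Dox cells, CNOT2 was 8.96 and 8.38 in CNOT2 +Dox cells against 9.86 and 9.72 in CNOT2 -Dox cells, and CNOT3 was 6.80 in CNOT3 +Dox cells and 8.96 in CNOT3 -Dox cells. All 7 HEK-293T markers averaged 6.90 or more, though GATA3 ranged between 3.65 and 8.08 and NEFM between 8.63 and 14.93 over the arrays. Below the array median on average were 3 of 4 blood markers, 5 of 6 fibroblast markers and 1 of 3 osteosarcoma or bone markers. The highest marker of these types averaged 4.29 (CD14), 7.0 (COL1A1) and 6.61 (BGLAP), in that order. In bulk RNA, fewer cells of a type and less RNA per cell cannot be told apart. The number of arrays limits the precision, and since the sources differ on whether the replicates are technical or biological, the p-values measure only the spread between these arrays.

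Annexins share a core of repeats that bind calcium and phospholipid, and a variable N-terminal tail by which members bind partners such as S100 proteins. They are known for roles in membrane repair, vesicle traffic, blood coagulation and inflammation. ANXA3 is abundant in neutrophils, where it binds granule membranes, and ANXA9 is an atypical member whose calcium sites have degenerated. The 250 bases before the start of these genes are shown because ANXA3 was the annexin that varied most between arrays, and ANXA9 was the annexin whose spots stayed nearest to the array median. They come from RefSeq on GRCh38.p14, chr4:78551520-78551769 (plus strand) for ANXA3 and chr1:150982042-150982291 (plus strand) for ANXA9, with each CG dinucleotide in capitals.
ANXA3: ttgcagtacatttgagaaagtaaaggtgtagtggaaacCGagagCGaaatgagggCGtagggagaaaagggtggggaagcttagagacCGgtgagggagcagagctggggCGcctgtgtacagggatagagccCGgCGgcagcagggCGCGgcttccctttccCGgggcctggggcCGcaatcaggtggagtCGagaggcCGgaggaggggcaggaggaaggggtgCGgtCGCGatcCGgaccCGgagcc
ANXA9: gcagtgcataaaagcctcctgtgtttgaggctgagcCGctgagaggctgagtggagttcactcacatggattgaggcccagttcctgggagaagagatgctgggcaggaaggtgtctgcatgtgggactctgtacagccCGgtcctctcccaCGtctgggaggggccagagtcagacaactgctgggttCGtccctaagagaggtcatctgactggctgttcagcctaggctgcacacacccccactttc
The ANXA3 stretch held 18 CG dinucleotides and 64.0% G and C, and the ANXA9 stretch held 4 CG dinucleotides and 58.0% G and C. The median over 27305 RefSeq promoters of this length was 11 CG dinucleotides and 58.0% G and C. All 9 annexins were matched by symbol. Of these, 3 (ANXA1, ANXA2 and ANXA11) held TATAAA on either strand, against 11.1% of all promoters, 3 (ANXA1, ANXA6 and ANXA7) held CCAAT, against 33.0%, and 5 (ANXA2, ANXA4, ANXA5, ANXA6 and ANXA7) held GGGCGG, against 42.3%. These matches are a description of the letters and were not tested.

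ANXA3 was low in the CNOT1 and CNOT3 lines, both with and without Dox. ANXA3 is represented by 10 spots, and the values below are the mean and SD over these spots on 1 array, which is a technical spread within the array. The mean was 4.95 ± 0.45 in CNOT1 +Dox cells and 4.69 ± 0.45 in CNOT1 -Dox cells. It was 6.15 ± 0.18 in CNOT3 +Dox cells and 5.44 ± 0.27 in CNOT3 -Dox cells. In the CNOT2 line it was 8.0 ± 0.19 and 8.48 ± 0.22 with Dox, against 7.35 ± 0.24 and 9.26 ± 0.20 without. In the Luci line it was 7.45 ± 0.30 and 7.47 ± 0.27 with Dox, against 7.33 ± 0.31 and 8.89 ± 0.21 without. Every array of the CNOT1 and CNOT3 lines lay below every array of the CNOT2 and Luci lines. The plot of the ANXA3 spots shows this for each array.

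**Figure D1:**
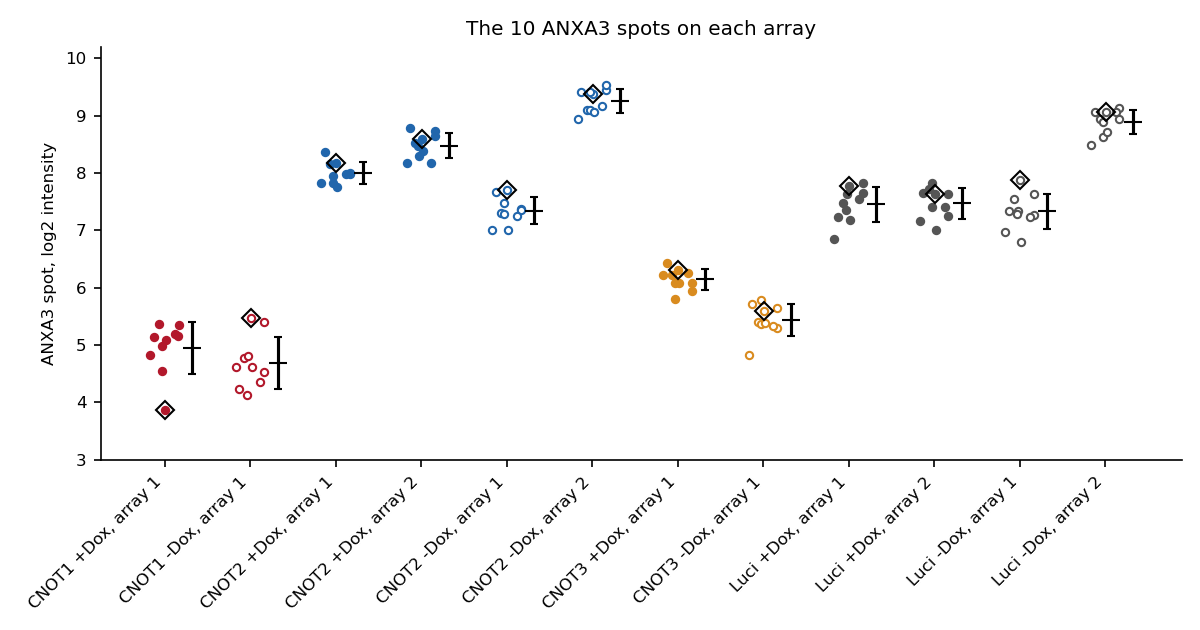
Each point is 1 of the 10 ANXA3 spots on 1 array (y axis, log2 intensity), with filled points for +Dox and open points for -Dox cells, and the diamond marks the spot used to represent the gene. The bar at the right of each array gives the mean ± SD over the spots, from 4.69 in CNOT1 -Dox cells to 9.26 in CNOT2 -Dox cells of the second experiment, and the CNOT1 +Dox diamond lies below the other 9 spots.

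For the tests, a gene was represented by its brightest spot on average. It read 3.86 in CNOT1 +Dox cells and 5.47 in CNOT1 -Dox cells, a difference of -1.61. The other 9 spots of the CNOT1 +Dox array lay between 4.55 and 5.37. Over all 10 spots the CNOT1 difference, +Dox minus -Dox, averaged 0.26 (SD 0.75), and 8 spots were higher with Dox. So the lower level of ANXA3 in CNOT1 +Dox cells than in CNOT1 -Dox cells was seen in the representing spot and 1 other, and the direction of the difference turned with the mean of all spots. Against Luci +Dox cells of the first experiment all spots differed in the same direction. The mean difference was -2.50 (SD 0.56), and CNOT1 +Dox was the lower by over 2-fold in each of the 10 spots. The same difference before induction, CNOT1 -Dox minus Luci -Dox cells, was -2.64 in the first experiment.

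The uninduced lines were compared to measure how far ANXA3 differed without Dox. Since the CNOT1 -Dox array may have entered the choice of ANXA3, its difference from Luci -Dox cells, -3.0 on the log2 scale and -2.61 with the experiment as a block, is given with no test. For CNOT3 -Dox cells against Luci -Dox cells the difference was -2.88 (SE 0.76, adjusted p = 0.359 in limma over all 15033 genes tested), and for the CNOT3 line against the Luci line, with and without Dox averaged, it was -2.13 (SE 0.54, adjusted p = 0.133). Neither passed the threshold of 0.05. With the experiment as a block and a variance trend on intensity, they were -2.48 (adjusted p = 0.0358) and -1.74 (adjusted p = 0.0143) and passed it, in a fit where 1.51% and 7.05% of all genes were called lower. The block alone gave adjusted p-values of 0.185 and 0.0891. With the mean of all spots and no block, the differences were -2.68 (adjusted p = 0.481 in limma) and -2.0 (adjusted p = 0.198). The Luci -Dox arrays are shared by the CNOT1 and CNOT3 comparisons, and the CNOT1 and CNOT3 groups of 1 array were assumed to vary like the replicated groups. For CNOT3 +Dox against Luci +Dox cells the difference was -1.39 (SE 0.76, adjusted p = 0.554). Within the first experiment alone, the difference from Luci cells was -2.28 for CNOT3 -Dox and -1.46 for CNOT3 +Dox cells (10-spot means -1.90 and -1.31).

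In the CNOT2 and Luci lines, the -Dox level of ANXA3 differed between the experiments, and the Dox difference changed with it. The 10-spot mean of the -Dox arrays was higher in the second experiment than in the first by 1.91 in the CNOT2 line and by 1.56 in the Luci line, whereas for the +Dox arrays the difference was 0.48 in the CNOT2 line and 0.02 in the Luci line. CNOT2 +Dox minus CNOT2 -Dox cells was 0.66 in the first experiment, with 10 spots higher, and -0.78 in the second, with 10 spots lower. For Luci +Dox minus Luci -Dox cells it was 0.12 and -1.42. In limma the 2 experiments together gave -0.16 (SE 0.62) for CNOT2 and -0.78 (SE 0.62) for Luci, each with an adjusted p of 1.0, and the Dox difference of CNOT2 minus that of Luci was 0.62 (SE 0.88, adjusted p = 1.0). Where the second Luci -Dox array was grouped by its other label, the last was -0.44 and the Luci difference was 0.28. With 1 replicate left out, the CNOT2 difference lay between -1.0 and 0.67, the ends without CNOT2 -Dox replicate 1 and without CNOT2 -Dox replicate 2. The CNOT3 line had a difference of 0.71 (SE 0.88, adjusted p = 1.0), and all 10 spots were higher with Dox.

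Of the 9 annexins, none was called at an adjusted p under 0.05 in any of the 10 comparisons tested by limma. The called share of all genes was 0.0% in either direction in each comparison between CNOT2 and Luci groups and in the CNOT3 Dox comparison. It was 0.113% higher and 0.16% lower for CNOT3 +Dox against Luci +Dox, 0.0266% and 0.16% for CNOT3 -Dox against Luci -Dox, 0.0931% and 0.266% for CNOT1 -Dox against Luci -Dox, and 0.432% and 0.752% for the CNOT3 line against the Luci line. At an unadjusted p under 0.05 the count was 1 annexin (ANXA1) for CNOT2 +Dox against Luci +Dox cells, where 5.38% of all genes were under it. It was 1 (ANXA3) for CNOT3 -Dox against Luci -Dox cells (8.13% of all genes) and 2 (ANXA3 and ANXA11) for the CNOT3 line (16.1%). For CNOT1 -Dox against Luci -Dox cells (11.9%) it was 0 of the annexins other than ANXA3. It was 0 for CNOT3 +Dox against Luci +Dox cells (11.5%), for the Dox comparisons of the CNOT2 (4.06%), CNOT3 (3.09%) and Luci (2.77%) lines, for CNOT2 -Dox against Luci -Dox cells (2.68%) and for the Dox difference of CNOT2 minus that of Luci (2.41%). The plot of the levels on each array shows the 9 genes together.

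**Figure D2:**
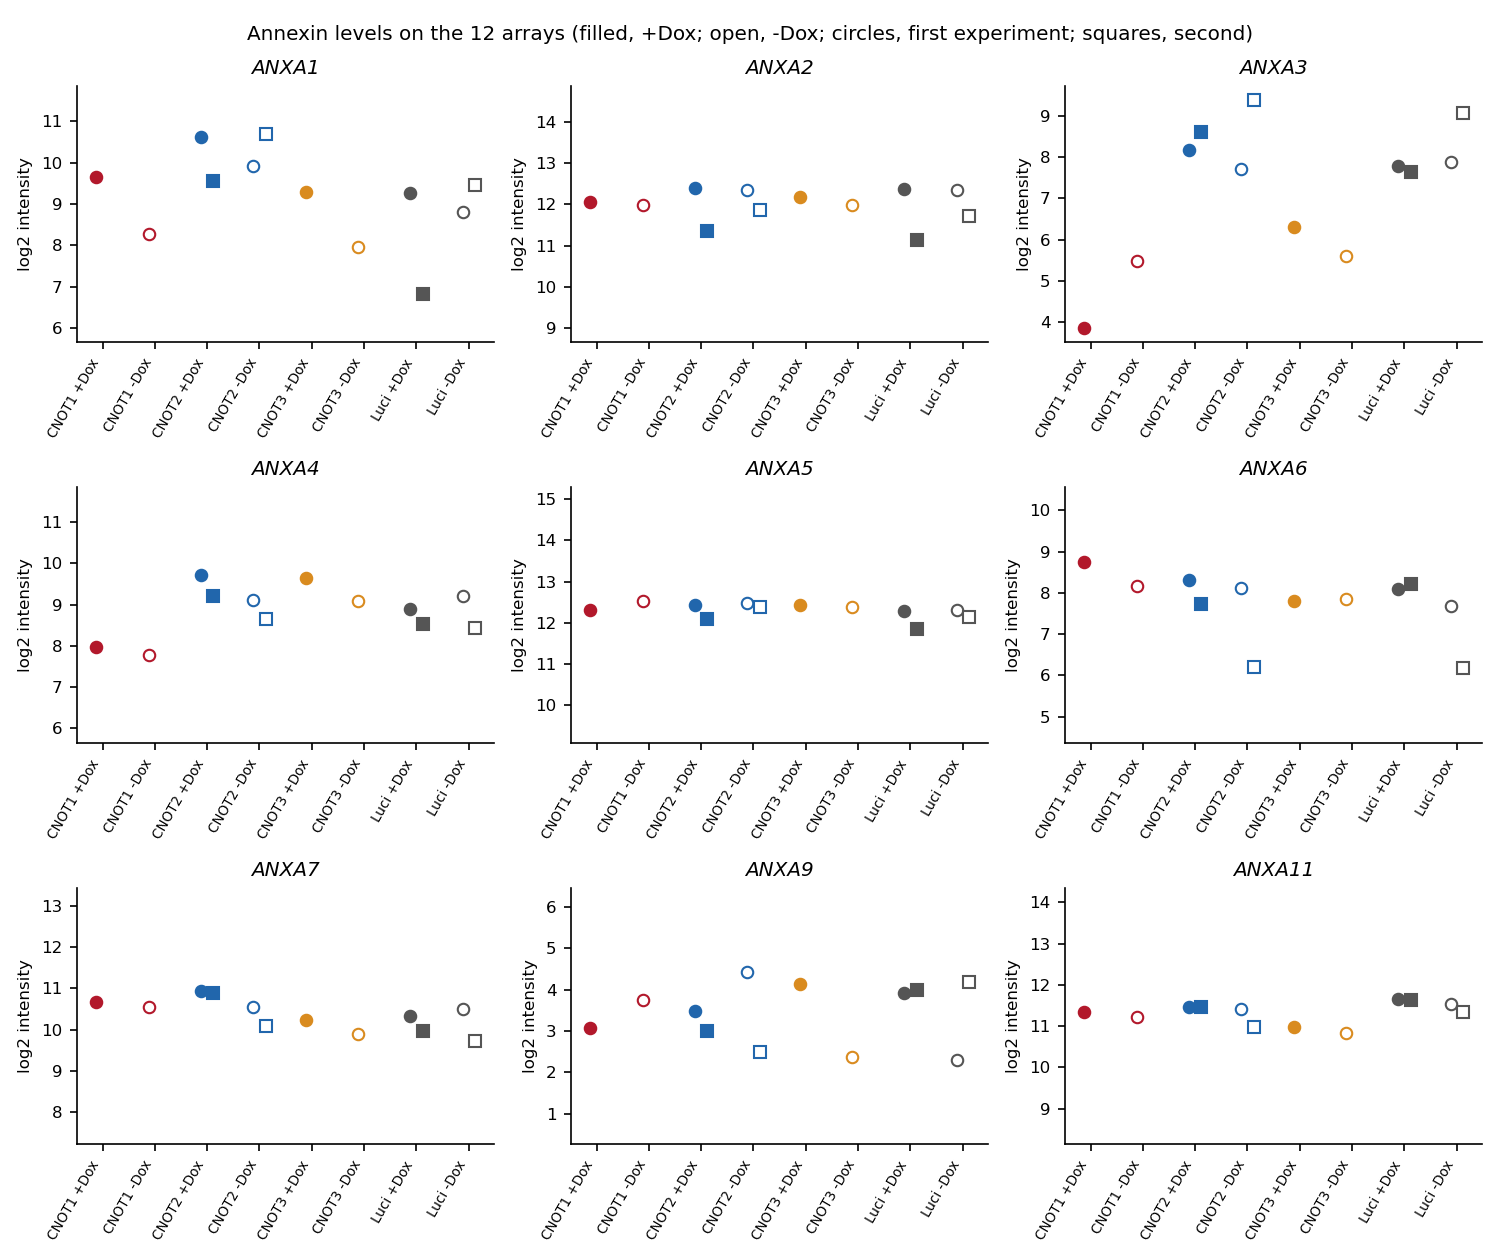
Level of each annexin (y axis, log2 intensity of the spot that represents the gene) in the 8 groups, with filled symbols for +Dox and open symbols for -Dox cells, circles for the first and squares for the second experiment. Each panel spans the same number of log2 units, and ANXA3 has the widest range, 5.52 over the 12 arrays, against 0.66 for ANXA5. The low end of the ANXA3 range is the CNOT1 +Dox array, whose level was used in the choice.

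Over the 12 arrays the range of a gene was 3.88 for ANXA1, against a median of 1.58 over all genes tested. For ANXA3 it was 5.52, which is a description, since its low end (3.86) is the CNOT1 +Dox level used in the choice. The 10-spot means of ANXA3 lay between 4.69 and 9.26. The range was 2.55 for ANXA6, 2.13 for ANXA9 and 1.94 for ANXA4. ANXA2, ANXA7, ANXA11 and ANXA5 had ranges of 1.25, 1.21, 0.83 and 0.66, below that median.

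ANXA1 is a glucocorticoid-induced protein that signals through formyl peptide receptors and limits inflammation. It read 9.65 in CNOT1 +Dox cells and 8.28 in CNOT1 -Dox cells. It read 10.62 and 9.55 in CNOT2 +Dox cells, against 9.93 and 10.70 in CNOT2 -Dox cells. It read 9.29 in CNOT3 +Dox cells and 7.95 in CNOT3 -Dox cells. It read 9.27 and 6.82 in Luci +Dox cells, against 8.81 and 9.47 in Luci -Dox cells. The second Luci +Dox array was the lowest of the 12, and the CNOT2 arrays with and without Dox overlapped. ANXA1 differed by 2.04 (SE 0.81, adjusted p = 0.899 in limma) in CNOT2 +Dox against Luci +Dox cells, 1.35 and 2.73 by experiment, and by 0.82 without the second Luci +Dox array. In the CNOT3 line the Dox difference was 1.34 (adjusted p = 1.0) and in the CNOT1 line it was 1.37. The Luci Dox difference was -1.10 (adjusted p = 1.0), 0.46 and then -2.65 by experiment. In the first experiment alone, the difference from Luci +Dox cells was 0.38 for CNOT1 +Dox, 1.35 for CNOT2 +Dox and 0.02 for CNOT3 +Dox cells. Against Luci -Dox cells the difference was -0.86 for CNOT1 -Dox (adjusted p = 0.787), 1.18 for CNOT2 -Dox (adjusted p = 1.0) and -1.19 for CNOT3 -Dox cells.

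ANXA4, a member found at epithelial membranes, read 7.98 in CNOT1 +Dox cells and 7.78 in CNOT1 -Dox cells. Elsewhere it ranged between 8.43 and 9.72, so the CNOT1 arrays were the 2 lowest. The difference of CNOT1 -Dox from Luci -Dox cells was -1.04 (SE 0.47, adjusted p = 0.447 in limma), and with the block and the intensity trend it was -1.30 (adjusted p = 0.0165). In that fit 3.85% of all genes were called lower, and the block alone gave an adjusted p of 0.0851 for ANXA4. In the CNOT2 line ANXA4 read 9.72 and 9.22 with Dox, against 9.11 and 8.66 without, a difference of 0.61 and 0.56 by experiment (0.58 together, adjusted p = 1.0). Against Luci +Dox cells the difference of CNOT2 +Dox cells was 0.76 (adjusted p = 0.991).

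ANXA6, which carries a duplicated core, read 8.30 and 7.73 in CNOT2 +Dox cells, against 8.11 and 6.20 in CNOT2 -Dox cells. It read 8.09 and 8.22 in Luci +Dox cells, against 7.67 and 6.19 in Luci -Dox cells. The -Dox arrays of the second experiment were the 2 lowest of all 12. The Luci Dox difference was 1.23 (SE 0.72, adjusted p = 1.0 in limma), 0.42 and then 2.03 by experiment. Where the second Luci -Dox array was grouped as Luci +Dox, as one of its labels states, the Luci difference was -0.17. In the first experiment ANXA6 read 8.74 in CNOT1 +Dox cells and 8.17 in CNOT1 -Dox cells, and 7.81 in CNOT3 +Dox cells and 7.86 in CNOT3 -Dox cells.

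ANXA2, which binds tissue plasminogen activator and plasminogen together with S100A10, and ANXA5, a phosphatidylserine binder used to stain apoptotic cells, differed by at most 0.42 in size in the limma comparisons. ANXA2 ranged between 11.14 and 12.39, and ANXA5 between 11.86 and 12.52, over the 12 arrays. In the second experiment the Dox difference of ANXA2 was -0.50 in the CNOT2 line and -0.58 in the Luci line, and that of ANXA5 was -0.30 and -0.27.

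ANXA7, a protein that aggregates secretory granules, read 10.94 and 10.89 in CNOT2 +Dox cells, against 10.56 and 10.08 in CNOT2 -Dox cells. The difference was 0.60 (0.38 and then 0.81 by experiment, adjusted p = 1.0 in limma), and that from Luci +Dox cells was 0.76 (adjusted p = 0.98). ANXA11, which tethers RNA granules to lysosomes, read 10.98 in CNOT3 +Dox cells and 10.83 in CNOT3 -Dox cells, against 11.66 and 11.64 in Luci +Dox cells and 11.54 and 11.33 in Luci -Dox cells. The CNOT3 line differed from the Luci line by -0.64 (SE 0.24, adjusted p = 0.261), and with the block and the intensity trend by -0.72 (adjusted p = 0.0107). In that fit 7.05% of all genes were called lower, and the block alone gave an adjusted p of 0.0993 for ANXA11.

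ANXA9 was near background. Its 10 spots had means between 2.70 and 3.43 over the arrays, and a within-array SD of 0.58 (median over arrays), against 0.25 for ANXA3. The Dox difference of the representing spot was 1.76 in the CNOT3 line (adjusted p = 1.0 in limma) and 1.61 in the Luci line in the first experiment, where this spot read 4.13 in CNOT3 +Dox and 2.37 in CNOT3 -Dox cells. With the mean of the 10 spots the CNOT3 difference was 0.63 (adjusted p = 1.0).

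**Figure D3:**
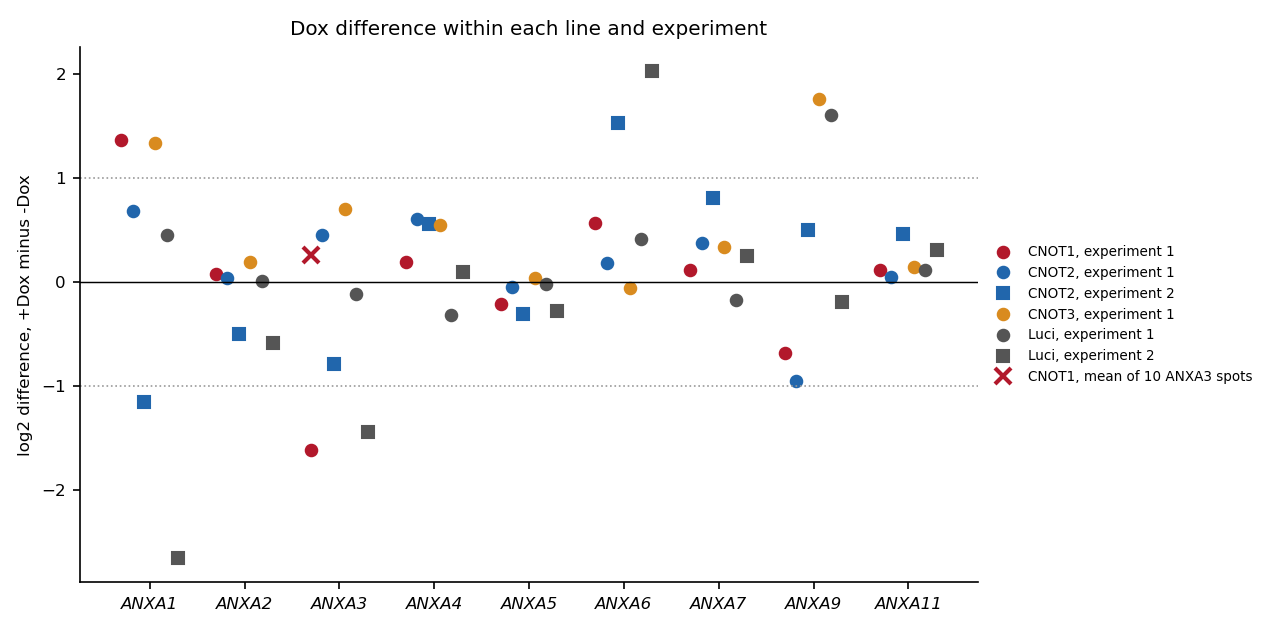
Log2 difference, +Dox minus -Dox cells, of each annexin within a line and experiment (y axis). Circles are the first and squares the second experiment, dotted lines mark 2-fold, and the cross gives the CNOT1 difference as the mean of the 10 ANXA3 spots, 0.26, against -1.61 for the representing spot.

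With Dox against their own -Dox cells, 1 annexin (ANXA1) was more than 2-fold higher and 1 (ANXA3) more than 2-fold lower in the CNOT1 line, where 4.99% of all genes were higher and 3.55% lower. The ANXA3 entry is a description, since its CNOT1 +Dox level was used in the choice. With the mean of all spots 0 annexins were lower in the CNOT1 line (2.95% of all genes), and ANXA3 differed by 0.26. In the CNOT2 line the counts were 0 higher and 0 lower (3.83% and 1.8% of all genes). In the CNOT3 line 2 (ANXA1 and ANXA9) were higher and 0 lower (5.79% and 4.26%), and with the mean of all spots 1 (ANXA1) was higher (4.84% of all genes). Averaged over Dox, the CNOT3 line had 0 annexins higher and 1 (ANXA3) lower than the Luci line (5.89% and 6.74%). For the Dox difference of CNOT2 minus that of Luci, 0 annexins were beyond 2-fold (4.84% of all genes higher and 3.83% lower). In the Luci line 1 (ANXA6) was higher and 1 (ANXA1) lower (2.37% and 1.85%). The median Dox difference of the annexins was 0.12 in the CNOT1 line, -0.16 in the CNOT2 line, 0.34 in the CNOT3 line and -0.10 in the Luci line, and that of all genes was 0.01 in each line.

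Against Luci +Dox cells, 1 annexin (ANXA1) was more than 2-fold higher in CNOT1 +Dox cells and 1 (ANXA3) lower (9.19% of all genes higher and 9.83% lower). In this count and in the CNOT1 -Dox counts below, ANXA3 is a description. Its CNOT1 +Dox level was used in the choice, and the CNOT1 -Dox array may have been. In CNOT2 +Dox cells 1 (ANXA1) was higher and 0 lower (4.47% and 2.05%), and in CNOT3 +Dox cells 1 (ANXA1) was higher and 1 (ANXA3) lower (8.89% and 9.75%). With the experiment as a block the CNOT3 +Dox counts were 0 and 0, at 0.98 for ANXA1 and -1.0 for ANXA3 (9.21% and 9.28%). For CNOT1 +Dox cells ANXA1 differed by 1.34 with the block. Within the first experiment ANXA1 differed by 0.38 for CNOT1 +Dox and by 0.02 for CNOT3 +Dox cells. Among the -Dox lines, 1 annexin (ANXA6) was higher and 2 (ANXA3 and ANXA4) lower in CNOT1 than in Luci cells (9.69% and 10.5%), 1 (ANXA1) higher in CNOT2 cells (2.41% and 1.63%), and 2 (ANXA1 and ANXA3) lower in CNOT3 cells (7.44% and 8.48%). With the block the CNOT1 -Dox counts were 0 higher and 3 (ANXA1, ANXA3 and ANXA4) lower (9.2% and 9.94%).

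**Figure D4:**
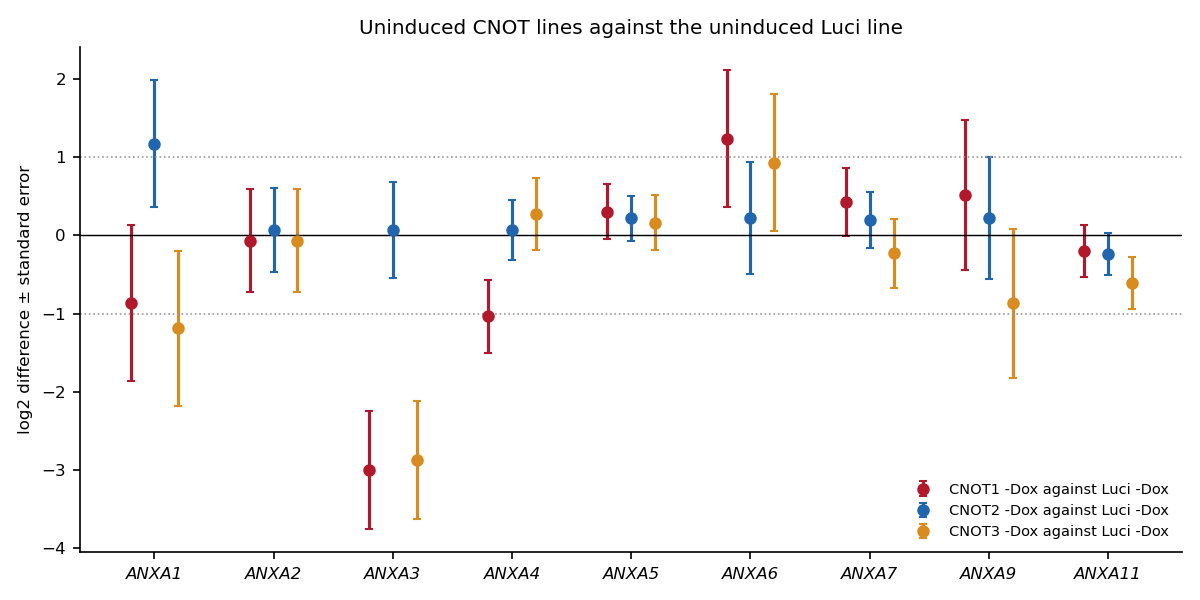
Log2 difference of the CNOT1, CNOT2 and CNOT3 -Dox cells from the Luci -Dox cells for each annexin (y axis), with points at the limma estimate and bars for its standard error (the CNOT1 difference of ANXA3 is a description, with no test). ANXA3 lies at -3.0 for CNOT1 and -2.88 for CNOT3 and close to 0 for CNOT2. The Luci -Dox mean holds arrays of both experiments, and within the first experiment the ANXA3 difference was -2.41 for CNOT1 and -2.28 for CNOT3.

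The 5 genes whose log2 values, centred on each gene's mean, lay nearest to those of ANXA3 over the 12 arrays were DMC1, FAM150A, TNFRSF12A, CALCA and ATF3. Their root mean square differences from ANXA3 were 0.44, 0.54, 0.55, 0.56 and 0.57, against a median of 1.64 over the other genes tested. A gene with the same level on every array would differ from ANXA3 by 1.58, so that median mostly gives the size of the ANXA3 variation. ANXA3 was taken by its representing spot, which read below its other spots in CNOT1 +Dox cells. DMC1, a recombinase of meiosis, read 3.48 in CNOT1 +Dox cells and 3.44 in CNOT1 -Dox cells, and between 6.27 and 7.62 in the CNOT2 and Luci lines. ATF3, a transcription factor induced by stress, read 10.47 in CNOT1 +Dox cells and 10.25 in CNOT1 -Dox cells, and between 12.47 and 14.43 in the CNOT2 and Luci lines. These genes share the arrays and their normalization, and the likeness is given as a description.

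Of the S100 partners of the annexins, 3 of 6 passed the filter on low values, and none was called. S100A11, a partner of ANXA1, read 9.47 in CNOT1 +Dox cells and 9.32 in CNOT1 -Dox cells and between 9.92 and 10.88 elsewhere, and its difference of CNOT1 -Dox from Luci -Dox cells was -1.22 (adjusted p = 0.223 in limma). S100A4 had a Dox difference of 1.10 in the CNOT2 line and 1.13 in the CNOT3 line (adjusted p = 1.0 in each), against -0.27 in the CNOT1 line and -0.02 in the Luci line.

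Of 15 receptors, ligands and substrates 10 passed the filter, and PLAT was called, in 4 comparisons. PLAT encodes tissue plasminogen activator, which ANXA2 with S100A10 binds. It read 8.42 in CNOT1 +Dox cells and 7.89 in CNOT1 -Dox cells, and 9.07 in CNOT3 +Dox cells and 8.57 in CNOT3 -Dox cells. In the CNOT2 line it read 12.28 and 12.30 with Dox, against 11.89 and 11.97 without, and in the Luci line 11.88 and 11.45 with Dox, against 11.78 and 11.57 without. PLAT was lower in CNOT1 -Dox than in Luci -Dox cells, with a log2 difference of -3.79 (SE 0.33, adjusted p = 0.0155 in limma). The CNOT3 line, averaged over Dox, was also below Luci (-2.85, SE 0.24, adjusted p = 0.00495). Within the CNOT3 line its Dox difference was 0.50 (adjusted p = 1.0). The CNOT3 -Dox cells had a difference of -3.1 from Luci -Dox cells (adjusted p = 0.0387), and the CNOT3 +Dox cells one of -2.60 from Luci +Dox cells (adjusted p = 0.0499). The call for the CNOT3 line held in all 16 settings run, that for CNOT1 -Dox in 12, and those for CNOT3 -Dox and CNOT3 +Dox in 7 each. The receptors FPR1, FPR2 and FPR3, through which ANXA1 signals, did not pass the filter.

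Of 17 names listed for calcium-dependent membrane repair, 15 passed the filter and none was called. MYOF, a ferlin of the plasma membrane, read 6.47 and 4.66 in CNOT2 +Dox cells, against 3.81 and 2.83 in CNOT2 -Dox cells, and its differences with Dox were 2.25 in the CNOT2 line, 3.1 in the CNOT3 line and 1.19 in the Luci line (adjusted p = 1.0 in each, limma), and -0.21 in the CNOT1 line.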

How the data were processed

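All 12 arrays of 4 HEK-293T lines in 8 groups were used. By their methods, the authors used log spot means after NormExp background correction, for which negative controls served, and quantile normalization. The log2 values the authors deposited, 1 per spot, were used as they stood, without detection calls. Their log base was taken from their range. Symbols came from the platform annotation, in which 37051 of 62976 spots had one, and 33705 of these matched RefSeq by accession.

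The spot with the highest mean over the 12 arrays represented a gene, and genes at or above the 25th percentile of the gene means were tested, which left 15033 genes and all 9 annexins. The 8 group means were fitted in limma 3.58.1 (R 4.3.3), with 4 residual degrees of freedom, all from the CNOT2 and Luci groups, and Benjamini-Hochberg adjustment over all genes (threshold 0.05). The method was tried on simulated data with independent noise on each array, for CNOT2 +Dox against CNOT2 -Dox cells. This did not cover deviations shared within an experiment or the groups of 1 array. The number of a replicate was taken as its experiment (from the study's text for CNOT1 and CNOT3), and same-numbered arrays deviated together (correlations between 0.365 and 0.614 over 6 pairs of groups), so a fit with the experiment as a block was run beside the main design. Alternatives covered the block, an intensity trend, the filter, the mean of all spots, cyclic loess, the label of the second Luci -Dox array and leaving out each replicate.

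The members and gene lists were chosen with earlier results of these data known. Genes named were the 9 annexins, the targeted CNOT genes, the 5 genes nearest to ANXA3, and list members more than 2-fold different in a comparison, up to 4 per list. The genes FPR1, FPR2, FPR3 and S100A10 were named beside these. The probe sequences were not used here.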

Additional observations from a re-analysis of the deposited data

How the results depend on the processing

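Under 16 alternatives, the 18 pairs of an annexin and a comparison that were beyond 2-fold gave 266 values, of which 263 kept their direction. The reversed values were 0.26 for ANXA3 in CNOT1 +Dox against CNOT1 -Dox cells with the mean of all spots (1 spot read lower than the other 9 in CNOT1 +Dox cells), 0.13 for ANXA1 in Luci +Dox against Luci -Dox cells without Luci +Dox replicate 2 (the lowest and highest value with a replicate left out were -2.32 and 0.13), and -0.17 for ANXA6 in that comparison with the second Luci -Dox array grouped as Luci +Dox. With the replicate block and an intensity trend, 1 annexin was called for CNOT3 +Dox against Luci +Dox cells (ANXA11). The count was 1 for CNOT3 -Dox against Luci -Dox cells (ANXA3). For CNOT1 -Dox against Luci -Dox cells 1 annexin other than ANXA3 was called (ANXA4). ANXA3 is left out there, since its choice may have used the CNOT1 -Dox array. For the CNOT3 line against the Luci line 2 were called (ANXA3 and ANXA11). Without the block and the trend the count was 0 in each. The called share of all genes with the block and the trend was 3.52% higher and 4.35% lower for the first of these comparisons. It was 0.512% and 1.51% for the next, then 3.11% and 3.85%, and 5.52% and 7.05% for the CNOT3 line. The cause was not tested. The block alone called 0 annexins, with 80 genes lower and 38 higher over all genes for CNOT1 -Dox against Luci -Dox cells, against 40 and 14 without it. The number of annexins beyond 2-fold in CNOT1 +Dox against CNOT1 -Dox cells was 1 with the mean of all spots, against 2. In CNOT1 +Dox against Luci +Dox cells it lay between 1 and 2 when each replicate was left out, the lower value without Luci +Dox replicate 2. With the mean of all spots, 1 annexin (ANXA1) was higher and 2 (ANXA11, at -1.01, and ANXA3) were lower in CNOT1 +Dox than in Luci +Dox cells (7.86% and 8.17% of all genes). In the other comparisons leaving out a replicate left 0 annexins called. With 1 array in each CNOT1 and CNOT3 group, their own spread is not known, and low spots such as those of ANXA9 are limited by background.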

Other observations

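Of 5 other annexin genes listed (ANXA8, ANXA8L1, ANXA8L2, ANXA10 and ANXA13), 3 were measured, 2 passed the filter on low values and none was called in limma. ANXA2P1 and ANXA2P3 also carry an ANXA symbol but were not in this list. Their means over the 12 arrays were 7.54 and 2.30. ANXA8L2 read 2.22 in CNOT1 -Dox cells, against 3.77 and 2.73 in Luci -Dox cells, a log2 difference of -1.03 (adjusted p = 0.522). ANXA10 read 5.49 on the second CNOT2 -Dox array and between 1.79 and 2.78 on the other 11, and it did not pass the filter on low values. ANXA2 had a second spot with a mean of 2.93 over the 12 arrays and ANXA7 a second spot with a mean of 7.77. ANXA11 had further spots with means of 4.00 and 3.35. None of these spots was used to represent its gene.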
